A study of Saccharomyces cerevisiae with 151 samples.

Results

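The 9 genes described here carry out sulfate uptake and assimilation in Saccharomyces cerevisiae: SUL1 (YBR294W), SUL2 (YLR092W), MET3 (YJR010W), MET14 (YKL001C), MET16 (YPR167C), MET5 (YJR137C), MET10 (YFR030W), MET1 (YKR069W) and MET8 (YBR213W). They were chosen by name for their place in this pathway, and each is read by 1 probe set that names no other gene. All 9 were among the 5611 genes tested, of 5656 genes named by the arrays' annotation.

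Single-colour Affymetrix arrays, 151 in all, measured the RNA of BY4741, a haploid MATa laboratory strain that carries deletions in HIS3, LEU2, URA3 and MET17 (also called MET15). Cells were sampled in synthetic complete medium before, and at intervals after, addition of 100 mM 3-aminotriazole (3AT), an inhibitor of the histidine enzyme encoded by HIS3. The groups were the wild type (WT), the single deletions gcn4, leu3 and gat1, the double deletions gat1gcn4, gcn4leu3 and gat1leu3, and met31. GCN4 encodes the general activator of amino acid synthesis, LEU3 a regulator of branched-chain amino acid synthesis, GAT1 a GATA activator of nitrogen genes and MET31 a DNA-binding regulator of sulfur genes. WT and the single deletions were followed to 120 min and the other strains to 60 min. Of 50 groups in the fit, most had 3 arrays. Only 2 were available for gcn4 at 60 min, gat1 at 20 min, gat1gcn4 at 0 and 45 min and gat1leu3 at 45 min. For met31 there is 1 array per time, at 6 times, and no test was made. HIS3 is partly deleted in BY4741 and the medium was complete, and whether the cells starved was not tested. Whether replicates came from separate cultures is not in the labels. The p-values cover only the spread of these arrays, part or all of which may be technical.

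Yeast takes up sulfate through the permeases Sul1 and Sul2. ATP sulfurylase (Met3) activates it to adenylyl sulfate, which the kinase Met14 phosphorylates to PAPS. The PAPS reductase Met16 then releases sulfite. Sulfite reductase, made of Met10 and Met5, converts sulfite to sulfide with the help of siroheme, a cofactor that Met1 and Met8 make from a heme precursor. Sulfide is normally joined to O-acetylhomoserine by Met17, the enzyme missing from every strain used here, so in BY4741 the main route out of sulfide is missing and growth normally depends on supplied methionine. The genes are known as targets of the activator Met4 with its partners Cbf1, Met28, Met31 and Met32.

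The signal is the authors' probe set intensity, here multiplied on each array by 1 factor that brought its 2% trimmed mean to 500. Values of different probe sets cannot be ranked against each other. The deposited arrays had 2 kinds of scale: 78 lay near a trimmed mean of 500 (all of WT and gat1, and replicates 1 and 2 of gcn4 and leu3), while the other 73 lay between 22.4 and 104.5. All double deletion and met31 arrays are of the second kind and all WT arrays of the first, so in comparisons of these strains with WT strain and deposited scale cannot be told apart. Over all genes, replicates 1 and 2 were closer to each other than to replicate 3 in each of the 7 strains. The median absolute difference between replicates 1 and 2 was 0.23 to 0.31 on the log2 scale, and that between either of them and replicate 3 was 0.29 to 0.52. Deletions read as labelled, with 1 exception: GCN4 was below its WT median divided by 3 on 56 of 57 arrays lacking it, and the gcn4 array at 90 min, replicate 3, read 2285. Among arrays that do not lack the gene, 1 of 92 for LEU3, 3 of 95 for GAT1 and 0 of 94 for GCN4 were also below that limit. MET31 read 8.36 in the median on the met31 arrays, against 449.2 in WT. MET17 stayed between 0.95 and 61.0 on every array, the a-specific receptor gene STE2 had a median of 1221, and the alpha-specific STE3 one of 21.8, near the median array floor of 21.3.

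In WT the median change of the 9 genes was highest at 60 and 90 min after 3AT, when MET14 led. It was 0.82 at 20 and at 30 min, 0.70 at 45 min and 1.31 at 90 min on the log2 scale. MET14 rose at 45, 60 and 90 min. The 60 min arrays of 8 of the 9 genes lay above all arrays at 0 min. The median change of the 9 genes at 60 min was 1.21 on the log2 scale, when the median of all genes tested was -0.07. At 120 min the median of the 9 was 0.13.

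**Figure D1:**
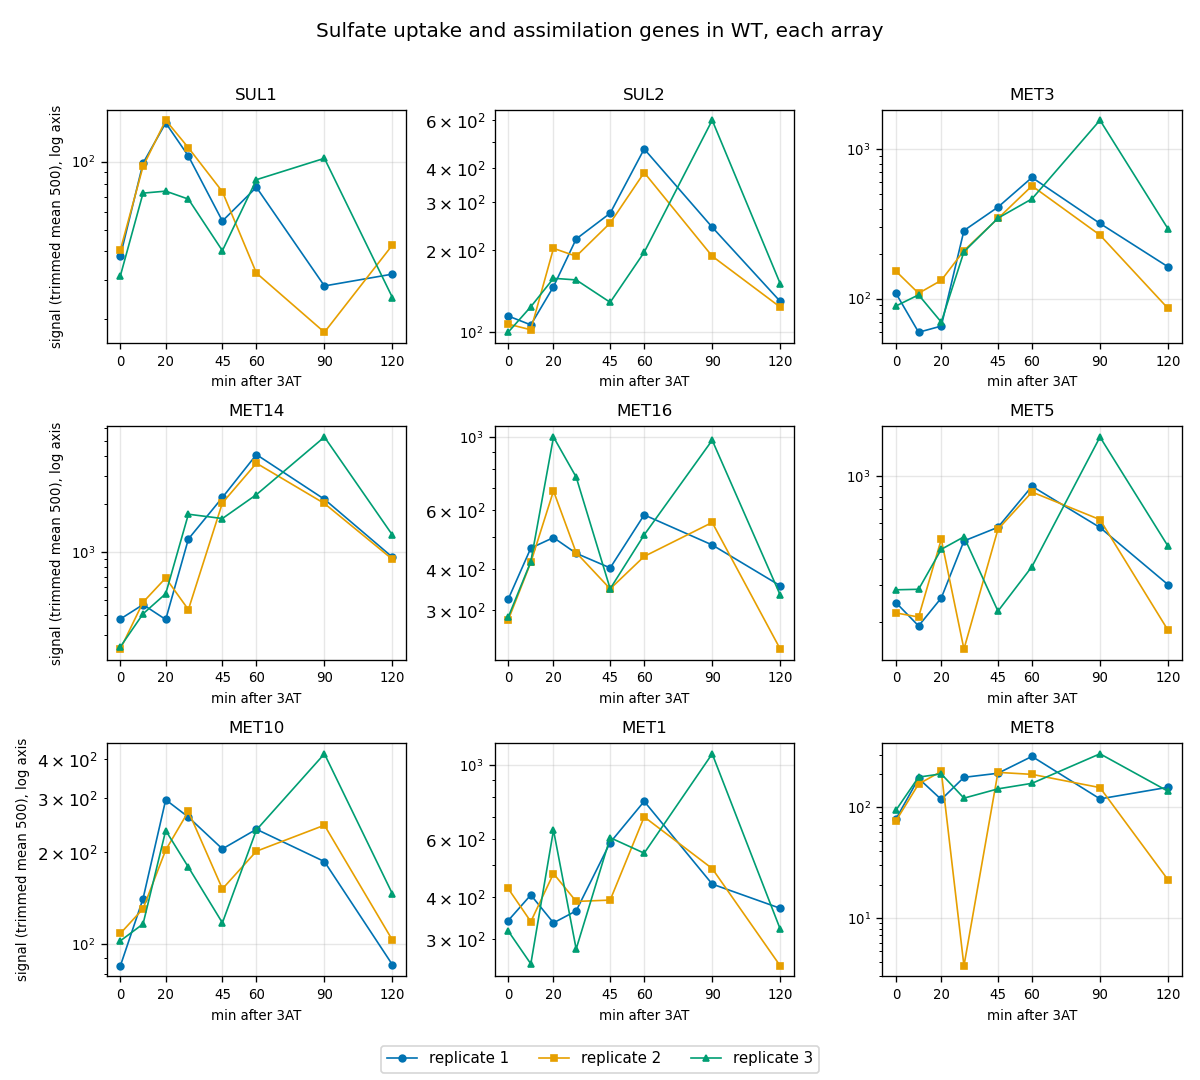
Signal of the 9 genes in WT on each of the 3 arrays per time, from 0 to 120 min after 3AT (log axis; each panel has its own range). SUL2, MET3, MET14, MET5 and MET1 climb to 60 min, SUL1 and MET16 have their highest mean at 20 min, and replicate 3 at 90 min is the highest WT array of 7 of the 9 genes.

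Of the permeases, SUL2 followed the late course and SUL1 an early one. SUL2 read 114.3, 106.7 and 99.6 at 0 min, and 469.7, 384.7 and 196.0 at 60 min. These groups did not overlap, and replicate 3 was the lowest at 60 min. The change was 1.49 ± 0.50 (SE, n = 3 each) on the log2(signal + 16) scale used throughout, and did not pass limma's test (adjusted p = 0.19). SUL1 read 38.2, 40.6 and 31.2 at 0 min and 148.5, 152.7 and 74.0 at 20 min. The SUL1 arrays at 20 min were all above those before 3AT. By 90 min 2 of 3 arrays (28.1 and 17.5, against 103.5) were below all of the latter. Its change at 20 min was 1.37 ± 0.78 (adjusted p = 0.45). SUL1 is a dim probe set: 29 of its 151 readings were below the floor of their array, the 20th percentile of its probe sets, which ran from 12.99 to 31.4. The counts for the other genes were 3 readings for MET8, 1 for MET5 and 0 for the remaining 6.

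The activating enzymes gave the clearest course. MET14, the adenylyl sulfate kinase, read 379.4, 245.8 and 254.0 before 3AT, 2196, 2031 and 1620 at 45 min, then 4081, 3603 and 2288 at 60 min. It read 2140, 2013 and 5260 at 90 min. By 120 min it was at 926.7, 899.0 and 1276, still above every array taken before 3AT. Every array from 45 min on was thus far above the starting level, and replicate 3 peaked later than the others. The changes were 2.68 ± 0.54 at 45 min (adjusted p = 9.4e-04), 3.42 ± 0.54 at 60 min (9.1e-06) and 3.23 ± 0.54 at 90 min (9.7e-05, limma). At 60 min this is 10.7-fold. Without replicate 3 of 90 min, the change at that time was 2.78 (adjusted p = 0.0084). MET3, the ATP sulfurylase, read 108.5, 152.6 and 89.2 at 0 min and no higher than 132.5 at 10 and 20 min. At 60 min it read 647.0, 568.4 and 465.3, well apart from the start, and at 90 min 318.5, 266.2 and 1565. The change of MET3 was 2.13 ± 0.59 at 60 min (adjusted p = 0.052) and 2.03 ± 0.59 at 90 min (0.085), short of the threshold of 0.05 at both times. The adjusted p fell below it with median centring (0.018 and 0.04), quantile normalization (0.022 and 0.04), array weights (8.5e-06 and 0.0012) and the common-scale arrays described below (3.8e-04 and 1e-03). Without replicate 3 of 90 min, it was 1.24 there (adjusted p = 0.62).

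The mean of MET16, the PAPS reductase, had 2 maxima, at 20 and 90 min, neither of which passed the test. It read 323.2, 279.7 and 285.1 before 3AT, then 496.5, 686.7 and 998.8 at 20 min. It was lower at 45 min (402.1, 347.7 and 347.9), and the 90 min arrays gave 471.7, 551.5 and 976.9. At each of these later times its arrays stayed above all those at 0 min. The changes were 1.20 ± 0.48 at 20 min (limma adjusted p = 0.21), 0.74 ± 0.48 at 60 min (0.96) and 1.06 ± 0.48 at 90 min (0.61). Replicate 3 was the highest array at both maxima. By the F-test over all times MET16 was not called in WT (adjusted p = 0.41).

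For the subunits of sulfite reductase the arrays separated from the start at different times, a difference that was not tested. MET5 read 248.4, 221.6 and 286.1 at 0 min and 897.3, 842.2 and 369.6 at 60 min, so that its arrays separated late. MET10 read 85.0, 108.4 and 102.6 before 3AT, but already 295.3, 202.6 and 234.5 at 20 min. The 60 min arrays gave 236.7, 200.8 and 235.5. MET10 thus lay near its 60 min level 20 min after 3AT, when the MET5 arrays (261.4, 499.6 and 447.3) still overlapped those at 0 min. Between these times MET10 was lower, at 117 to 204 at 45 min (change 0.57 ± 0.52, limma adjusted p = 0.94). The changes at 20 min were 1.17 ± 0.52 for MET10 (adjusted p = 0.28) and 0.60 ± 0.65 for MET5 (0.78, limma). At 60 min the change was 1.33 ± 0.65 for MET5 (adjusted p = 0.71) and 1.07 ± 0.52 for MET10 (adjusted p = 0.70).

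Neither siroheme gene passed the test in WT in the fit of all arrays. MET1, the methyltransferase, read 340.5, 425.5 and 317.2 at 0 min and 778.4, 698.9 and 543.5 at 60 min. MET8, the dehydrogenase and chelatase, read 78.5, 75.6 and 94.4 before 3AT, then 183.0, 162.9 and 188.0 at 10 min. The 60 min arrays gave 289.3, 199.1 and 165.2. The 10 min arrays of MET8 lay above those at 0 min (0.98 ± 0.49, adjusted p = 0.49). Replicate 2 of 30 min gave 3.69 for MET8, and the change at that time was -0.27 ± 0.49. The same array also gave the lowest WT values of MET5 (148.7) and the lowest MET14 at that time (434.6, against 1205 and 1724). Changes at 60 min were 0.87 ± 0.44 for MET1 (adjusted p = 0.75) and 1.21 ± 0.49 for MET8 (adjusted p = 0.47).

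In limma's fit of all arrays of the 7 replicated strains, MET14 was the 1 gene of 9 that passed at 45, 60 and 90 min, when 0.481%, 0.267% and 0.285% of all genes tested were called higher. At 10, 20, 30 and 120 min 0 of 9 passed, against 0.642%, 1.23%, 0.945% and 0.285% of all genes. At an unadjusted p under 0.05 there were 1, 2, 2 and 1 of 9 at those 4 times, against 10.1%, 13%, 12.5% and 10.9% of all genes in either direction. By the F-test over all times, MET14 (adjusted p = 8.1e-08) and MET3 (4.1e-04) varied in WT, against 7.20% of all genes. The rule of no overlap at 60 min, met by 8 of 9, was met by 6.93% of all genes. SUL1 was the exception (77.0, 32.1 and 83.2 at 60 min).

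The count depended on which arrays set the spread. With only the 78 arrays deposited on the common scale, whose WT changes are the same, SUL2, MET3, MET14 and MET10 rose at 60 min (4 of 9, against 0.962% of all genes). At 90 min 6 of 9 rose, the same genes with MET16 and MET5 (0.962% of all genes). SUL1, MET16 and MET10 rose at 20 min (3 of 9, against 2.83%), MET14 and MET10 at 30 min (2.28%), MET3 and MET14 at 45 min (1.39%), and MET14 alone at 120 min (1.55%). In that fit SUL1 at 20 min had adjusted p = 0.023 and MET10 0.0016, and 8 of 9 genes, all but MET8 (adjusted p = 0.051), varied over time, against 17.7% of all genes. In the deposited values without rescaling, MET14 did not pass at any WT time (adjusted p = 1.0, 0.38 and 0.46 at 45, 60 and 90 min).

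Within the deletion strains, MET14 was higher at 60 min than at 0 min in gcn4, leu3, gat1, gcn4leu3 and gat1leu3, with no overlap of arrays in any of them, and passed the test in leu3, gat1 and gat1leu3. The other genes were more variable. The rule of no overlap was met by 6 of 9 genes in gcn4 (12.3% of all genes), 3 in leu3 (8.70%), 5 in gat1 (8.50%), 8 in gcn4leu3 (11.0%), 2 in gat1leu3 (6.38%) and 0 in gat1gcn4 (7.86%). In 0 of the 7 strains did all 60 min arrays of SUL1 lie above those at 0 min.

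**Figure D2:**
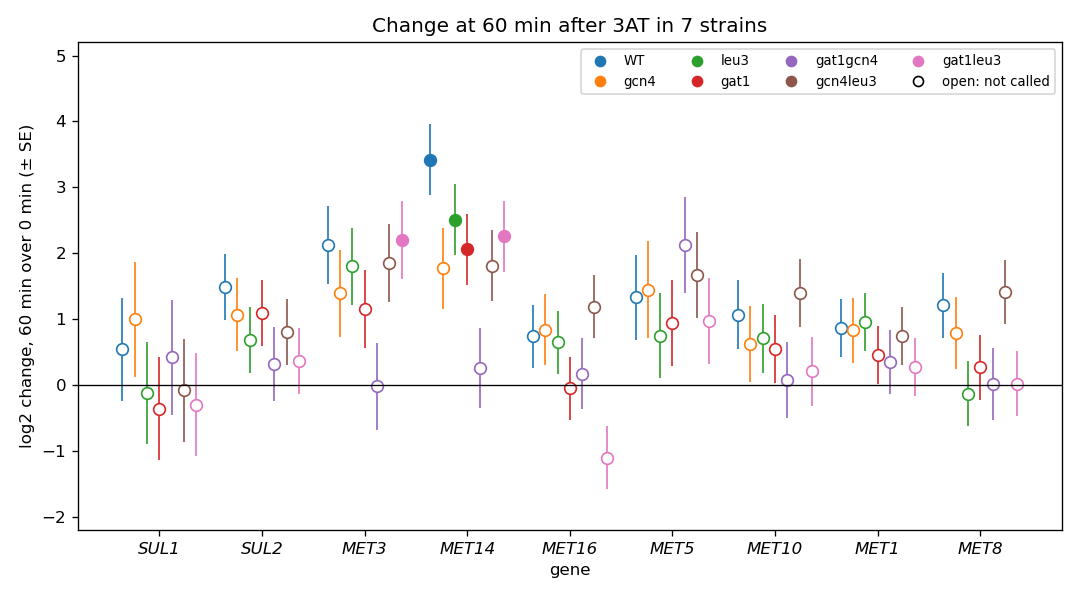
Change of each gene from 0 to 60 min in the 7 strains with replicates, as log2 change ± SE from limma (filled points: adjusted p under 0.05; open points: not called). MET14 was called in WT (3.42), leu3 (2.51), gat1 (2.06) and gat1leu3 (2.26), and MET3 in gat1leu3 (2.20).

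In leu3, MET14 read 239.9, 214.1 and 271.0 at 0 min and 2041, 1726 and 848.1 at 60 min. Its rise was 2.51 ± 0.54 (adjusted p = 0.0024), with replicate 3 the lowest at 60 min. MET3 went from 89.8, 60.3 and 103.0 to 738.3, 372.0 and 123.3, again without overlap, a change of 1.80 ± 0.59 (adjusted p = 0.10). The third gene whose arrays separated in leu3 was MET1. Replicate 3 of leu3 ran low in the late genes: at 45 min SUL2 read 530.8 and 415.2 in replicates 1 and 2 and 64.1 in replicate 3, and MET5 read 1176, 955.2 and 253.3. In all, 1 of 9 genes was called in leu3 at 60 min (0.517% of all genes). On the common-scale arrays, which leave out replicate 3, MET3, MET14 and MET1 rose (3 of 9, against 1.37%). Without only replicate 3 of 60 min 2 of 9 passed.

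In gat1, MET14 read 256.7, 229.8 and 295.6 at 0 min. It reached 1725, 1295 and 770.4 at 30 min and read 907.1, 696.3 and 2288 at 60 min, so replicates 1 and 2 had passed their highest level by then. The rise at 60 min was 2.06 ± 0.54 (adjusted p = 0.021), the only call among the 9 (0.588% of all genes). It was lost without replicate 1 of 0 min (adjusted p = 0.073), replicate 2 of 0 min (0.092) or replicate 3 of 60 min (0.20). The common-scale arrays added SUL2 (2 of 9, against 1.89%). MET16 had its maximum in gat1 at 10 min: it read 172.6, 201.8 and 233.7 before 3AT, 955.5, 1080 and 413.7 at its maximum, then 216.4, 106.7 and 310.2 by 60 min. The WT arrays of MET16 at 10 min read 417.9 to 461.6, a range that lay between replicate 3 and the others of gat1. SUL1, whose WT arrays at 20 min were 74.0 to 152.7, read 19.0 and 62.2 in gat1 at that time. In WT and gat1 these values of SUL1 did not overlap, and the difference at 20 min was not tested.

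In gcn4, the strain lacking the general amino acid control activator, late genes were also higher at 60 min, on 2 arrays that disagreed. MET14 read 426.4, 348.3 and 213.1 at 0 min and 2540 (replicate 1) and 487.4 (replicate 3) at 60 min, a change of 1.77 ± 0.61 (adjusted p = 0.14). It read 2329, 1342 and 1353 at 90 min and then 1921, 1590 and 1022 at 120 min, all above its arrays before 3AT. The 90 min array of replicate 3 is the one on which GCN4 itself read 2285. MET3 read 143.9, 137.2 and 174.2 at 0 min, and 968.9 and 177.8 at 60 min. SUL1 had its early maximum in replicates 1 and 2 of gcn4, with 22.1 and 5.99 at 0 min and 146.3 and 95.7 at 10 min, while replicate 3 went from 7.54 to 26.4. In the fit of all arrays 0 of 9 genes were called in gcn4 at 60 min, against 0.624% of all genes. At an unadjusted p under 0.05 (limma) there were 3 of 9, against 10.4% of all genes in either direction. On the common-scale arrays, which leave 1 array at 60 min, SUL2, MET3 and MET14 rose (3 of 9, against 2.69%). That lone array was taken to vary like those of the other groups.

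**Figure D3:**
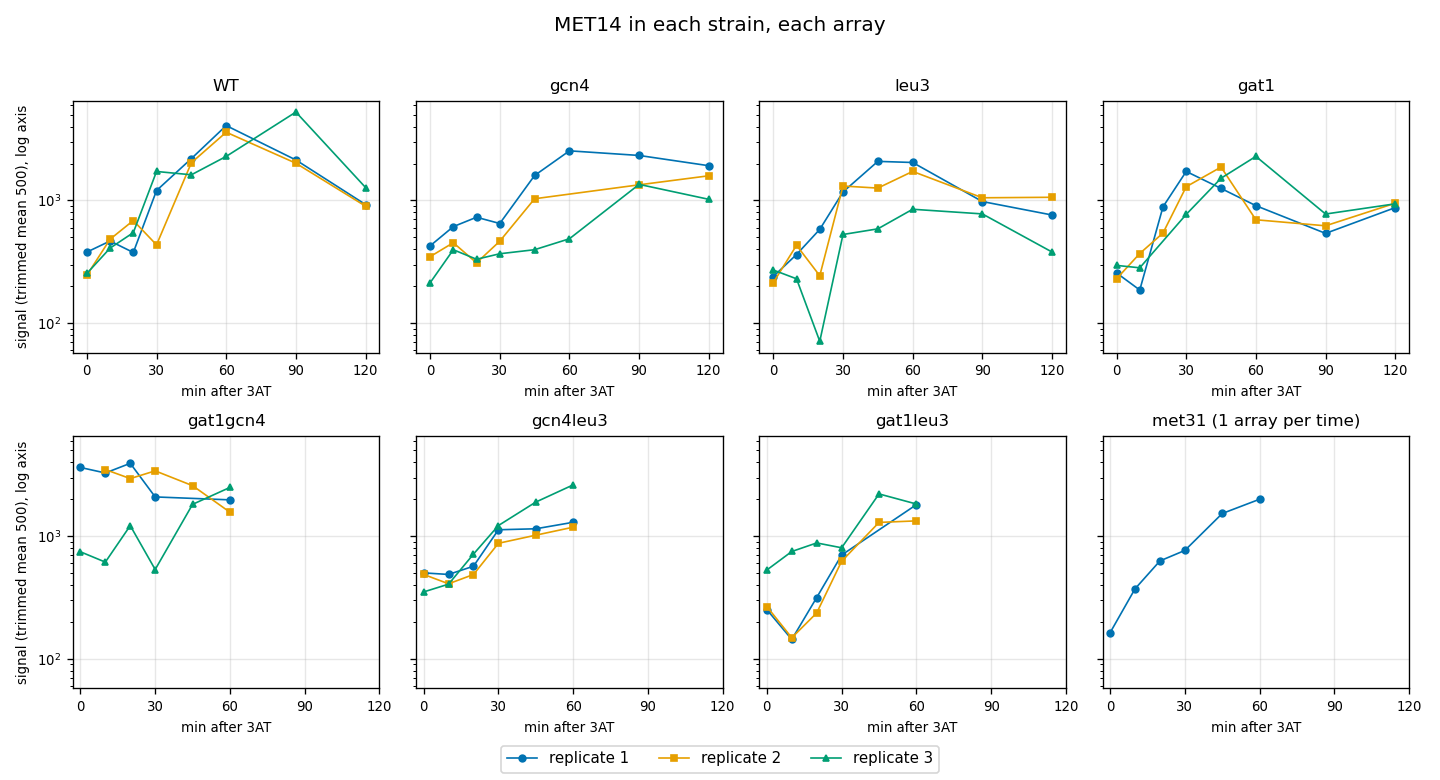
Signal of MET14 on every array, by strain and replicate, from 0 min to 120 min (60 min in the double deletions and met31), on 1 log axis for all panels. MET14 climbs in each strain but gat1gcn4, where replicates 1 and 2 begin near the WT level at 60 min and replicate 3 begins at 746.1. Replicate 2 of gat1gcn4 has no array at 0 min.

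In gcn4leu3 all genes but SUL1 had every 60 min array above every 0 min array. MET14 read 502.0, 487.7 and 351.1 at 0 min and 1298, 1184 and 2621 at 60 min (1.81 ± 0.54, adjusted p = 0.055). MET3 read 115.7, 110.0 and 87.1 at 0 min and 254.6, 420.8 and 656.8 at 60 min (1.85 ± 0.59, adjusted p = 0.082). MET5, MET10 and MET8 had changes of 1.67, 1.40 and 1.41, and the median of the 9 was 1.40, with -0.01 for all genes. Still 0 of 9 passed in limma, against 0.802% of all genes. The count at an unadjusted p under 0.05 was 6 of 9, against 13.7% of all genes in either direction. Here SUL1 stayed between 17.1 and 51.8 on all 18 arrays and had no early maximum.

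Over all times the F-test called MET14 in gcn4 (adjusted p = 0.0024; 11.2% of all genes), leu3 (8.3e-05; 4.81%), gat1 (2.9e-04; 10.4%), gcn4leu3 (0.027; 5.29%) and gat1leu3 (2.6e-04; 5.67%). MET3 was called in leu3 (0.023), gcn4leu3 (0.013) and gat1leu3 (0.0068), and MET16 in gat1 (0.029). In gat1gcn4 the count was 0 of 9, against 5.01% (limma; 1 of 9 and 17.8% of all genes at an unadjusted p under 0.05). These counts moved with each replicate left out, which leaves 1 array in some groups. Without replicate 3 of every deletion strain they were 8 of 9 genes in gcn4 (33% of all genes), 7 in leu3 (18.7%), 4 in gat1 (24.4%), 2 in gat1gcn4 (17.5%), 7 in gcn4leu3 (15.5%) and 6 in gat1leu3 (15.8%). Without replicate 2 they were 0 in all 6 strains, when 0.517% to 2.01% of all genes were called. Without replicate 1 they were 0 in gcn4, gat1 and gcn4leu3 and 1 in leu3, gat1gcn4 and gat1leu3, with 0.25% to 2.96% of all genes.

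Before 3AT, 0 of 9 genes passed the test against WT in gcn4, leu3, gat1, gcn4leu3 and gat1leu3 (limma). The shares of all genes called were 4.85%, 0.178%, 0.0891%, 3.37% and 6.68%. At an unadjusted p under 0.05 the counts were 0, 0, 0, 0 and 1, against 15.3%, 5.03%, 3.31%, 14.1% and 18.9% of all genes. MET16 in gat1leu3 read 998.6, 782.8 and 417.0 at 0 min, all above its WT arrays (279.7 to 323.2). Ordering the 7 strains by mean at 0 and at 60 min, 5 or 6 of the 6 neighbouring pairs had overlapping arrays for each of the 9 genes. Neighbours in such an order are the closest groups, so their overlap does not show that the strains were alike.

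The gat1gcn4 strain stood apart. Its replicates 1 and 2 carried high levels from the first array of each on, while replicate 3 began low and climbed. Replicate 2 has no array at 0 min, so the high level before 3AT rests on replicate 1 alone. The median absolute difference of the 9 genes between replicates 1 and 2 was 0.27 on the log2 scale, against 1.96 between 1 and 3 and 1.78 between 2 and 3. At 0 min, where replicates 1 and 3 are available, MET14 read 3634 and 746.1, MET3 1043 and 151.6, and MET10 705.1 and 86.3. MET16 read 1100 and 211.3 there, and MET5 1046 and 1.26, the latter below its array's floor. Replicate 1 was thus above every WT array at 0 min in each of these genes. At 60 min MET14 read 1978, 1568 and 2498, and MET3 384.5, 354.9 and 466.0, so replicate 3 was the highest in both. SUL1 had its early maximum at 30 min in replicates 1 and 2 (472.3 and 534.1, from 128.5 in replicate 1 at 0 min), while replicate 3 stayed between 36.8 and 103.3 and was the lowest at each time, at 60 min by little (116.9, 104.7 and 91.6).

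MET14 was the 1 gene of 9 called at 0 min, higher in gat1gcn4 than in WT by 2.46 ± 0.61 (n = 2 and 3, adjusted p = 0.0044), against 4.38% of all genes. Without replicate 1 it was 1.33 (adjusted p = 0.70). Without replicate 3, MET3, MET14, MET16 and MET10 were called (4 of 9, against 6.43% of all genes), MET14 at 3.59 ± 0.68. From 0 to 60 min 0 of 9 genes were called, against 1.80% of all genes (limma; 1 of 9 and 11.6% of all genes at an unadjusted p under 0.05). MET14 changed by 0.26 ± 0.61 with all arrays and by -1.04 without replicate 3. Against the change in WT, that of MET14 was lower by 3.16 on the log2 scale (-3.16 ± 0.81, adjusted p = 0.023), 1 of 9, against 1.09% of all genes. This call was lost without any of 7 single arrays of the 11 involved: replicates 2 and 3 of WT at 0 min, replicates 1 and 2 of either strain at 60 min, and replicate 1 of gat1gcn4 at 0 min. Without replicate 1 of 0 min the difference was -2.03. Without replicate 3 it was -4.46, and that of MET3 was -3.59. Both settings again leave 1 array of gat1gcn4 at 0 min.

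Other readings differed between the same replicates. URA3, which WT lacks (0.642 to 22.6), lay between 43.4 and 106 in replicates 1 and 2 of gat1gcn4, but between 230 and 1150 in replicate 3. In gcn4leu3 and gat1leu3 it read 284 to 2350 in all replicates. The mean of 12 general stress genes on the log2 scale lay between 9.43 and 10.46 in replicates 1 and 2, but between 8.32 and 9.25 in replicate 3. These ranges cover all times of a strain, and in WT the mean lay between 7.27 and 8.44 (7.53 to 7.71 at 0 min). In gcn4 it lay between 8.64 and 11.5 in replicates 1 and 2, and between 8.82 and 9.3 in replicate 3. In gcn4leu3, where the sulfate genes began low, the same mean lay between 9.24 and 10.34 in replicates 1 and 2, but between 8.54 and 9.21 in replicate 3. GAT1 was at most 39.8 in all replicates of gat1gcn4. GCN4 read at most 46.0 and 46.7 in its replicates 1 and 2 (medians 26.6 and 16.5), but 12.9 to 434 in replicate 3 (median 124). The part of these differences in the result was not tested.

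**Figure D4:**
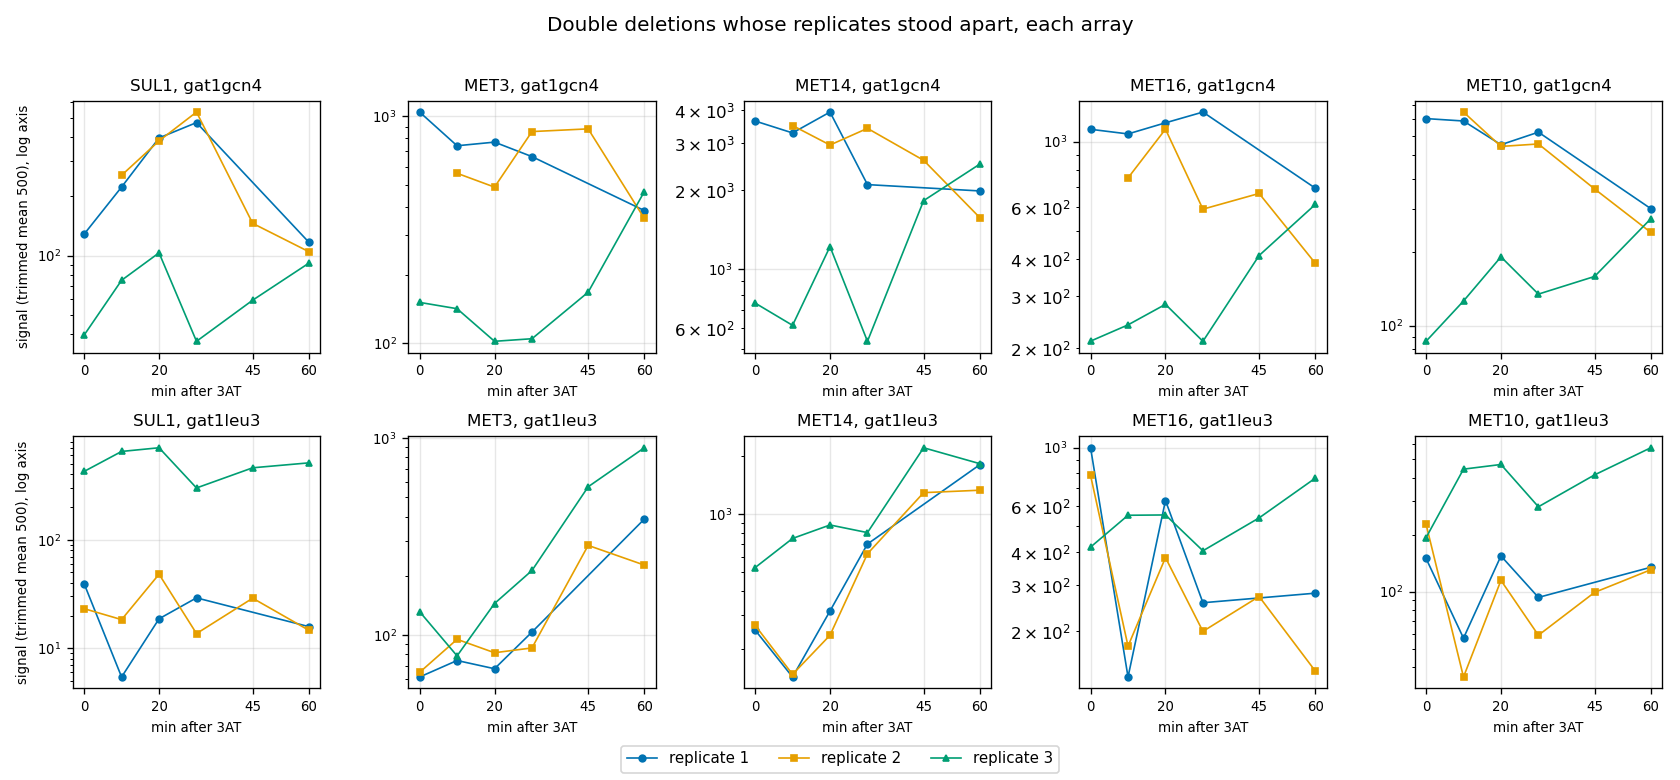
SUL1, MET3, MET14, MET16 and MET10 on each array of gat1gcn4 (top) and gat1leu3 (bottom), by replicate (log axis; each panel has its own range). In gat1gcn4 replicates 1 and 2 start high, though replicate 2 has no array before 3AT. Replicate 3 climbs to their level by 60 min in MET3, MET14, MET16 and MET10 but stays the lowest in SUL1 (36.8 to 103.3). In gat1leu3 replicate 3 lies above the others in SUL1 at every time (300 to 704, against 5.44 to 48.1).

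In gat1leu3 the activating genes rose late, and replicate 3 stood apart in other genes. MET14 read 251.8, 266.6 and 530.0 at 0 min and 1807, 1333 and 1829 at 60 min, a rise of 2.26 ± 0.54 (adjusted p = 0.0034). MET3 read 61.4, 64.8 and 131.7 at 0 min and 388.5, 227.0 and 893.8 at 60 min, a rise of 2.20 ± 0.59 (adjusted p = 0.01). These were the 2 of 9 called, against 3.76% of all genes. The call of MET3 was lost without replicate 2 of 0 min (adjusted p = 0.088), replicate 3 of 60 min (0.14) or replicate 3 at all times (0.078). SUL1 read 425.9 to 510.7 in replicate 3 at 0 and 60 min and 14.7 to 39.3 in the others. SUL2 read 376.8 and 445.1 in replicate 3 at these times and 85.0 to 137.4 in the others. The SUL1 level of that replicate was above every WT array at any time. Over all genes, replicate 3 differed from replicates 1 and 2 of gat1leu3 by 0.43 and 0.42 in the median, and these differed from each other by 0.29.

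MET16 ran the other way in replicates 1 and 2 of gat1leu3. It read 998.6 and 782.8 before 3AT, 133.1 and 174.6 at 10 min, then 628.0 and 380.2 at 20 min. It ended at 278.1 and 140.3, while replicate 3 went from 417.0 at 0 min to 764.4 at 60 min. MET10 in replicates 1 and 2 likewise went from 149.7 and 227.1 down to 56.7 and 35.4 at 10 min. With all arrays, MET16 was higher than in WT at 0 min by 1.18 ± 0.48 (limma adjusted p = 0.14). Its change from 0 to 60 min was -1.10 ± 0.48 (adjusted p = 0.16). That change differed from the one in WT by -1.84 ± 0.68 (adjusted p = 0.32). Leaving out replicate 3 was chosen after these readings were seen, so the p-values without it do not test the pattern. Without replicate 3, MET16 was higher than in WT at 0 min by 1.53 ± 0.51 (adjusted p = 0.034, 1 of 9, near the 10.5% of all genes). It then fell by 2.07 on the log2 scale to 60 min (SE 0.55, adjusted p = 0.0084, against 2.55% of all genes that fell). That change differed from the one in WT by -2.81 ± 0.72 (adjusted p = 0.018, 1 of 9, against 2.14%).

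In the fit of all arrays, differences between the other strains' changes and the change in WT did not pass the test. In gcn4, leu3, gat1, gcn4leu3 and gat1leu3, 0 of 9 genes were called (limma), against 0.143%, 0%, 0%, 0.178% and 0% of all genes. At an unadjusted p under 0.05 the counts were 1, 0, 0, 1 and 1, against 6.34%, 3.58%, 5.13%, 6.63% and 8.82%. Array weights called MET14 in gcn4 and gcn4leu3 (1 of 9 each, against 6.24% and 13% of all genes). MET16 in gat1leu3 was called without its replicate 3, an omission chosen after seeing the data, as given above. These comparisons share the WT arrays. For MET14 the 95% intervals of the difference were -3.26 to -0.04 in gcn4, -2.43 to 0.61 in leu3 and -2.88 to 0.16 in gat1. They were -3.12 to -0.09 in gcn4leu3 and -2.68 to 0.36 in gat1leu3. Such intervals hold both no difference or nearly none and a change smaller by several fold, so they do not show that these strains responded alike.

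The met31 strain lacks a DNA-binding partner of Met4, and its single arrays still ran upward in most of the pathway. From 0 to 60 min MET14 went from 163 to 2001, SUL2 from 90.6 to 654, MET3 from 114 to 639 and MET5 from 268 to 989. MET10 went from 108.5 to 463, MET16 from 184 to 740 (973 at 20 min), MET8 from 165 to 311, MET1 from 340 to 515 and SUL1 from 21.9 to 41.1. The change was above 1 on the log2 scale in 6 of 9 genes, and in 4.44% of all genes, with no replicate to set an error. The median was 1.92 for the 9 genes and -0.06 for all genes.

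**Figure D5:**
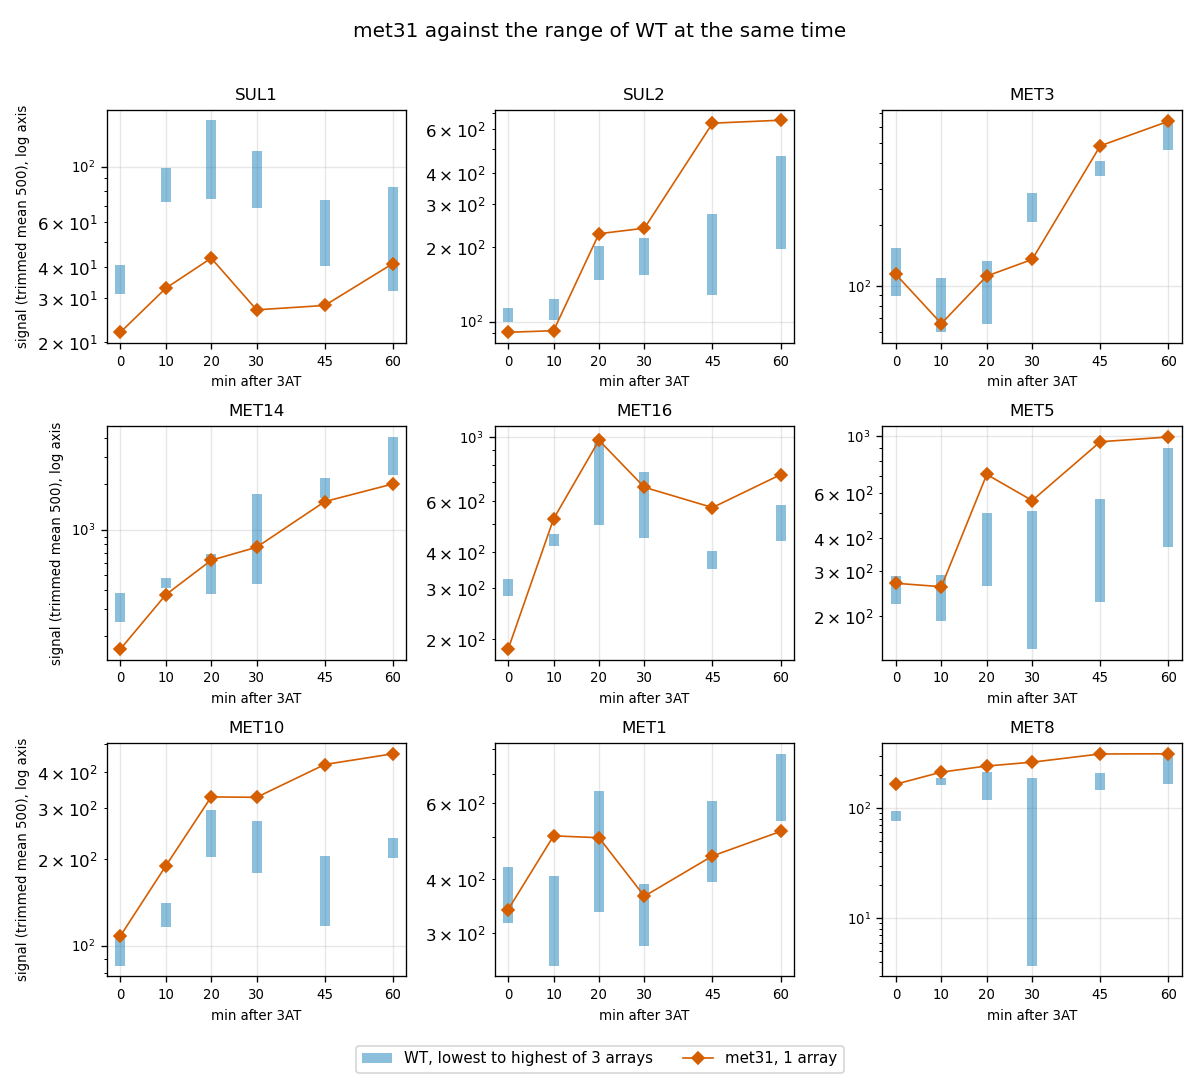
Signal of the 9 genes on the single met31 array at each time (diamonds) and the range of the 3 WT arrays at that time (bars), on log axes with a range of their own. At 60 min SUL2, MET16, MET5, MET10 and MET8 lie above the WT range, MET14 and MET1 below it, and SUL1 and MET3 within it.

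Against WT at the same times, the met31 readings differed by gene. MET8 was above all 3 WT arrays at all 6 times, already at 0 min (165, against 75.6 to 94.4). MET10 was within 1 unit of the highest WT array at 0 min and above the WT range at the later 5 times. MET14 was below the WT range at 0 min (163, against 246 to 379), 10 min (372, against 409 to 483), 45 min (1530, against 1620 to 2200) and 60 min (2001, against 2288 to 4081), and within it at 20 and 30 min. Of all genes, 27.2% were above the 3 WT arrays at 60 min and 4.85% at all 6 times. SUL1 was below all WT arrays from 0 to 45 min, and at 20 min read 43.2, against 74.0 to 153 in WT. SUL2 was below the WT range at 0 and 10 min and above it from 20 min on.

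The genes varied together unequally. Over the 50 group means of the 7 strains, each gene's Pearson correlation with the mean of the other 8 was 0.90 for SUL2, 0.84 for MET10, 0.81 for MET1, 0.78 for MET14, 0.77 for MET5 and 0.76 for MET3. It was 0.66 for MET16, 0.57 for MET8 and 0.50 for SUL1. The closest pair was MET3 and MET14 (0.88), followed by MET16 and MET10 and by SUL2 and MET14 (0.82 each), and SUL1 and MET3 were the least alike (0.23). Group means share their arrays and the factor that scaled each array, so these are descriptions only.

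Among all other genes tested, the 10 whose group means were most like the mean of the 9, over the 50 groups, were MET32 (0.859), MET2 (0.846), SER33 (0.844), MMP1 (0.79), MXR1 (0.745), MHT1 (0.74), MAL33 (0.74), COT1 (0.696), MUP1 (0.67) and RAD52 (0.67). MET32 encodes the paralog of Met31, and MET2 makes the O-acetylhomoserine that sulfide is joined to. SER33 encodes a phosphoglycerate dehydrogenase of serine synthesis. MET32 read 36.7, 42.5 and 48.0 in WT at 0 min and 146.1, 131.5 and 167.4 at 60 min, without overlap (1.49 ± 0.43, adjusted p = 0.073).

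Genes of neighbouring steps, in lists taken from their known roles, were called in part. In WT at 60 min 0.267% of all genes tested were called higher. Of 8 genes of methionine and S-adenosylmethionine synthesis 2 rose, MET2 (3.62 ± 0.82) and MET6, the methionine synthase (2.33 ± 0.60). Of 10 genes for other sulfur sources 3 rose: MMP1, the S-methylmethionine permease (3.13 ± 0.50), MHT1, which uses S-methylmethionine to make methionine (2.80 ± 0.43), and MUP1, a methionine permease (1.95 ± 0.44). At 60 min 0 passed (limma) among 6 genes of transsulfuration and glutathione, 5 of reductant supply, 6 regulators and 4 heme genes ahead of the siroheme branch. The medians of the 6 lists in that order were 0.63, 0.20, -0.03, 0.34, 0.53 and -0.12. At 20 min, when SUL1, MET16 and MET10 were near their early maximum, TRR1 (thioredoxin reductase, 1.82 ± 0.22), JLP1 (a sulfonate dioxygenase, 1.56 ± 0.44) and MET28 (a Met4 cofactor, 1.97 ± 0.54) rose in WT. These were 1 each of the reductant, other-source and regulator lists, when 1.23% of all genes rose. The reductant list also had 1 gene called higher at 10 min, 2 at 30 min and 2 at 45 min.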

How the data were processed

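RNA of 151 arrays was read as probe set intensity, which the authors deposited in 1 table, summarised with MAS5 per the submitters' processing notes (no version given). Each array was multiplied to a 2% trimmed mean of 500, and log2(signal + 16) was used, which understates changes of dim genes. Of 9335 probe sets, 6504 name 1 gene. For genes with several, the brightest that marks no cross-hybridisation was taken. Genes above their array's 20th percentile in most arrays of a group were kept (5611). Tests used limma 3.58.1 in R 4.3.3 (lmFit, eBayes with trend), 1 coefficient per group, 7 strains in 1 fit (95 residual degrees of freedom), two-sided, Benjamini-Hochberg over all genes, called under 0.05. The fit was run on simulated data with independent noise on each array. These held neither the likeness of arrays with the same replicate number nor the 2 kinds of scale, so they check the computation only. The number of arrays limits the precision.

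All 9 genes are named, and others by rule: the 10 most alike, and list members called in WT. The genes, lists and tests were chosen with earlier results of these data known. The alternatives were other scalings, pseudocounts, no filter, array weights, replicate blocks and omitted arrays. Omitting replicate 3 of gat1gcn4 or gat1leu3 was chosen after seeing the data.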

Additional observations from a re-analysis of the deposited data

Results flagged for a closer look

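MET14 changed less from 0 to 60 min in gat1gcn4 than in WT, by -3.16 on the log2 scale (limma adjusted p = 0.023). It is listed because the difference between the changes in these strains was itself tested and passed. The replicates of gat1gcn4 disagreed at 0 min (3634 and 746.1).

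The met31 arrays stand outside every test. On the single array at 60 min 5 genes were above all 3 WT arrays of that time, with no replicate behind them, and 27.2% of all genes were likewise above. The met31 and WT arrays were deposited on different scales, so strain and scale cannot be told apart. SUL2 read 654 (highest WT array 470), MET16 740 (581), MET5 989 (897), MET10 463 (237) and MET8 311 (289).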

How the results depend on the processing

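Counts are of the 9 genes passing limma's test. Omitting the filter on low values moved no count by over 1.5 times. The deposited values without rescaling gave 0 in WT at 45, 60 and 90 min, in leu3, gat1 and gat1leu3 at 60 min, in the gat1gcn4 difference and in every F-test. They gave 9 for gcn4leu3 and 8 for gat1leu3 against WT at 0 min, and turned MET14 in gat1gcn4 at 0 min to -0.16 (adjusted p = 0.89). In these values array scale and strain differ together, and groups of gcn4 and leu3 mix both scales. The counts of 9 and 8 come without a share of all genes and cannot tell strain from scale. The WT changes of MET14 kept their size (3.42 at 60 min). The shares that follow are of all genes called in either direction. Median centring gave 2 in WT at 60 and 90 min and in leu3 at 60 min (1.02%, 0.766% and 2.16%). It gave 1 in WT at 120 min (1.19%) and gcn4leu3 at 60 min (2.32%). Quantile normalization gave 2 in WT at 60 and 90 min and leu3 at 60 min (0.909%, 0.766% and 2.33%). It gave 1 in gcn4leu3 (2.41%). A pseudocount of 1 gave 1 in gat1gcn4 at 60 min (2.78%) and by F-test (5.69%). One of 64 gave 1 in gcn4leu3 at 60 min (2.39%).

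Arrays on the common scale gave 3, 2, 2, 4, 6 and 1 in WT from 20 to 120 min, when 0.962% to 2.83% of all genes rose. At 60 min they gave 3 in leu3 (1.37%) and 2 in gat1 (1.89%). By F-test they gave 8 in WT (17.7%), 6 in leu3 (14.6%) and 5 in gat1 (21.3%). In gcn4 this setting leaves 1 array at 60 min, and no count is repeated here. The count that stands in the results rests on that array. Array weights, whose calls are set beside the share of all genes called in either direction, gave 1, 3, 1, 5, 7, 6 and 1 in WT from 10 to 120 min (4.83% to 16.9%; 8.38% at 60 min). At 60 min they gave 1 in gcn4 (6.43%), 3 in leu3 (6.52%), 8 in gcn4leu3 (22.3%) and 1 in gat1leu3 (2.28%). They gave 1 each at 0 min in gcn4leu3 (21.9%) and gat1leu3 (9.05%) and for the differences of gcn4 (6.24%) and gcn4leu3 (13%). By F-test they gave 8 in WT (32.6%), 6 in gcn4 (43.6%), 7 in leu3 (22.6%), 4 in gat1 (40.3%), 3 in gat1gcn4 (25.2%), 8 in gcn4leu3 (45.3%) and 7 in gat1leu3 (14.7%). The cause was not tested.

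The correlation of deviations from the group means had a median by strain of 0.12 to 0.30 for same-numbered arrays, against -0.21 to -0.06 for different numbers. It was above 0.1 in most but not all same-numbered pairs (75 of 77 in gcn4, 34 of 35 in gat1gcn4, 45 of 77 in gat1), and the labels do not tie the numbers to a culture or day, so the number was not taken as a pairing. With the number as a fixed block, 2 passed in WT at 60 min (MET3 at adjusted p = 0.037) and 1 in gcn4leu3. Of all genes, 1.07% and 2.53% were called there in either direction. With strain and number as a random block, 1, 3, 3 and 1 passed in WT at 30, 60, 90 and 120 min (MET3 at 0.004 and 0.0078 at 60 and 90 min). The shares of all genes called were 3.72%, 1.76%, 1.59% and 3.39%. At 60 min this block also gave 1 in gcn4 (2.94% of all genes), 2 in leu3 (3.99%) and 4 in gcn4leu3 (4.79%). It gave 2 in gat1gcn4 at 0 min (5.51%). By F-test it gave 5 in WT (14.8%), 2 in gcn4 (near the share of all genes, 22.8%) and 5 in gcn4leu3 (12.4%). No other count moved by over 1.5 times under a replicate block.

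Chosen after seeing the data, omitting replicate 3 of gat1gcn4 left 1 array at 0 min, and its replicate 3 alone leaves 1 at each time. No further counts are given for these fits. The calls without replicate 3 that stand in the results rest on 1 array of gat1gcn4 at 0 min. Omitting replicate 3 of gat1leu3, likewise chosen, gave 1 at 0 min (10.5% of all genes) and 1 for the difference (2.14%). Omitting the gcn4 array at 90 min and the WT array at 30 min named in the results gave 1 in WT at 30 min.

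Omission of single arrays moved the count between 0 and 1 in WT at 30 min, in gat1 at 60 min and for the gat1gcn4 difference. The count was 1 to 2 in leu3 and gat1leu3 at 60 min, 1 in WT at 45, 60 and 90 min, and 2 to 3 by F-test in WT. Counts are not given for gcn4 at 60 min or gat1gcn4 at 0 and 60 min, where an omission can leave 1 array in a group. Besides the arrays named in the results for gat1, gat1leu3 and the gat1gcn4 difference, those behind the moves were replicate 2 in WT at 30 min and replicate 3 of 60 min in leu3. By F-test, leaving out 1 replicate number of the deletion strains gave 0 to 8 in gcn4, 0 to 7 in leu3, 0 to 4 in gat1, 0 to 2 in gat1gcn4, 0 to 7 in gcn4leu3 and 0 to 6 in gat1leu3. Depth has no counterpart on these arrays, and SUL1, near the floor, is the least certain reading.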
